A study of Saccharomyces cerevisiae with 10 samples.

Results

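The genes of ergosterol synthesis, storage and uptake were followed in fermenting yeast that lacks *MED15* or carries 1 of 4 alleles of it. The set holds 31 of the 6600 genes in the table. They were chosen by function and by identifier, with earlier results of these data known. Among them are 9 enzymes from acetyl-CoA to farnesyl pyrophosphate, 3 from there to lanosterol and 11 from lanosterol to ergosterol. The rest are the electron donors *NCP1* and *CYB5*, the regulators *UPC2* and *ECM22*, the sterol ester synthases *ARE1* and *ARE2*, and the uptake genes *SUT1* and *AUS1*. All 31 averaged 10 normalized counts or more, the minimum for testing, and are among the 6065 genes tested. The RNA came from 5 strains with S288C as their labelled background, 2 separate fermentations each: the med15 deletion, and strains with an integrated WY7, WY15, WY23 or LAB allele of *MED15*, of which LAB is labelled wild type. Each grew in 5 mL of white grape juice with supplements and was frozen at a weight loss of 35%. That point came after 48 h for the deletion and about 37 h for the others. *MED15* encodes a subunit in the tail of Mediator, the complex that passes signals from DNA-bound activators to RNA polymerase II.

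Ergosterol is the main sterol of yeast membranes. Its synthesis starts in the mevalonate pathway, passes through squalene and lanosterol, and needs molecular oxygen and haem at several steps, so that cells without oxygen must take sterol up from the medium. Upc2 and Ecm22 are related zinc-cluster activators of ERG genes that bind a short sterol regulatory element, and Upc2 is also needed for sterol uptake when oxygen is scarce. Surplus sterol is esterified with fatty acids and kept in lipid droplets.

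Recovered depth was 22.7 to 29.3 M gene-assigned reads per library, and each member had between 525 and 41750 reads in each library. Counting error is thus small as a share of each value. Replicates that lie very close, such as *ECM22* in LAB (2780 and 2780), need not show so small a spread between fermentations. *MED15* had 12.1 and 11.9 normalized counts in the deletion libraries, against 8238 to 10958 in the other 8. *URA3*, a pyrimidine synthesis gene often used as a selection marker, had 3213 and 3214 normalized counts in the deletion libraries and 0 in the other 8. Harvest time and *URA3* thus differ along with *MED15*, and their parts cannot be told apart. In RNA from a whole culture, fewer cells of a kind and less RNA per cell cannot be told apart either. LAB replicate 1 and WY15 replicate 2 stand apart from the other *MED15* libraries for these genes, as described further on.

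The letters TCGTATA, the core of the sterol regulatory element, were searched on both strands in the 500 bases before each start codon of the R64 genome. They occur before 9 of the 31 members (29.0%) and before 420 of 6000 promoters of the same length (7.0%). The stretches that hold them are shown because the later sections return to these 9 genes. Each is written in the direction of its gene with 20 bases on either side of the outermost match (fewer upstream for *ERG25*, where the searched window ends), and the capitals mark the element, which reads TATACGA where it lies on the other strand.
ERG13: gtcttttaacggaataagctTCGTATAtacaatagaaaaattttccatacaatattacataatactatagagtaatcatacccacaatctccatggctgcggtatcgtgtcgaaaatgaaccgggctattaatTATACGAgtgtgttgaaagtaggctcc
ERG8: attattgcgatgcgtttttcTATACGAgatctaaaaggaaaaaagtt
ERG1: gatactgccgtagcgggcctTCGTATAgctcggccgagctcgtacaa
ERG25: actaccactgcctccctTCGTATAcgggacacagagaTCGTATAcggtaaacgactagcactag
ERG28: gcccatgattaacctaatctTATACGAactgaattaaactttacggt
ERG6: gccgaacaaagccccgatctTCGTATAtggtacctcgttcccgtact
ERG2: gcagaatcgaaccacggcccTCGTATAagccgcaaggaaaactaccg
ERG3: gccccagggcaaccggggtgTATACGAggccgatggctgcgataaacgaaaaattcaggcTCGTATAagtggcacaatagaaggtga
CYB5: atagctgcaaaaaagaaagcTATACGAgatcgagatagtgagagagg
*ERG13*, *ERG25* and *ERG3* hold the element at 2 places each, and the other 6 genes at 1. In R64 the stretches lie at chrXIII:20610-20769 on the minus strand for *ERG13*, chrXIII:712144-712190 on the plus strand for *ERG8*, chrVII:848779-848825 on the minus strand for *ERG1* and chrVII:610064-610127 on the plus strand for *ERG25*. Those of *ERG28*, *ERG6*, *ERG2*, *ERG3* and *CYB5* lie at chrV:238268-238314 (minus), chrXIII:253396-253442 (minus), chrXIII:667332-667378 (plus), chrXII:253515-253601 (plus) and chrXIV:417551-417597 (minus). The *ERG13* stretch overlaps the coding sequence of the neighbouring gene *PGA3*, and the other 8 overlap no annotated coding gene. ATTGTT, the core of the motif of the oxygen-dependent repressor Rox1, occurs before 20 of the 31 members (64.5%) and 48.9% of all promoters. A motif of the haem-dependent activator Hap1, namely CGG, any 3 bases, TA, any base and CGG, occurs before 0 of 31 members and 21 of 6000 promoters (0.35%). These matches describe letters only, and no binding was measured.

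**Figure D1:**
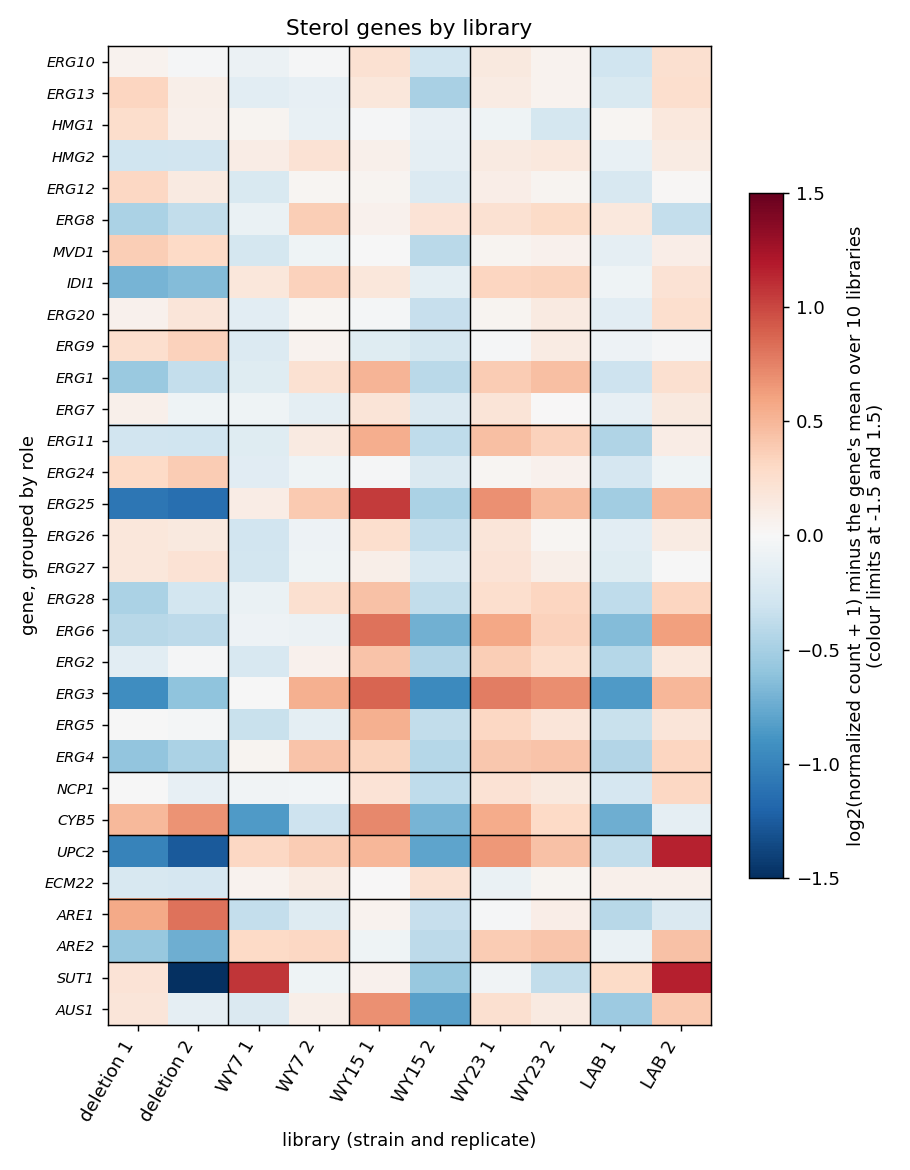
Heat map of the 31 genes (rows, grouped by role) in the 10 libraries (columns, deletion first and LAB last), coloured by log2(normalized count + 1) minus the gene's mean over the 10 libraries. LAB replicate 1 and WY15 replicate 2 are low for many genes, and *ARE1* is high and *IDI1* low in both deletion libraries.

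In the deletion, 3 of the 31 genes were higher than in LAB, 4 were lower and 24 did not pass the test (22.6% called; limma, Benjamini-Hochberg adjusted p under 0.05). Over all genes tested 36.6% were called, 18.9% higher and 17.7% lower, and the members' median log2 change was -0.01 beside 0 for all genes. When all libraries were scaled to an equal sum, the median of all genes moved to 0.36 and that of the members to 0.35. The split of the members' calls moved to 11 higher and 2 lower, beside 2871 higher and 425 lower over all 6065 genes. Higher were *ERG9*, *ERG24* and *ARE1*, and lower were *IDI1*, *UPC2*, *ECM22* and *ARE2*. Against the mean of the 4 *MED15* strains, which shares the deletion and LAB libraries with the first comparison, 4 were higher, 8 lower and 19 did not pass (38.7%, beside 49.9% of all genes, 25.6% higher and 24.3% lower). *MVD1* is added there among the higher genes, and *HMG2*, *ERG8*, *ERG25* and *ERG4* among the lower ones. Leaving out single libraries moved these counts, and those over all genes moved too. The members' median change against LAB then lay between -0.25 and 0.18. By role, the calls against LAB fell on 1 of 9 mevalonate genes, 1 of 3 genes from squalene to lanosterol, 1 of 11 genes from lanosterol to ergosterol, 0 of 2 electron donors, both regulators, both ester synthases and 0 of 2 uptake genes.

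**Figure D2:**
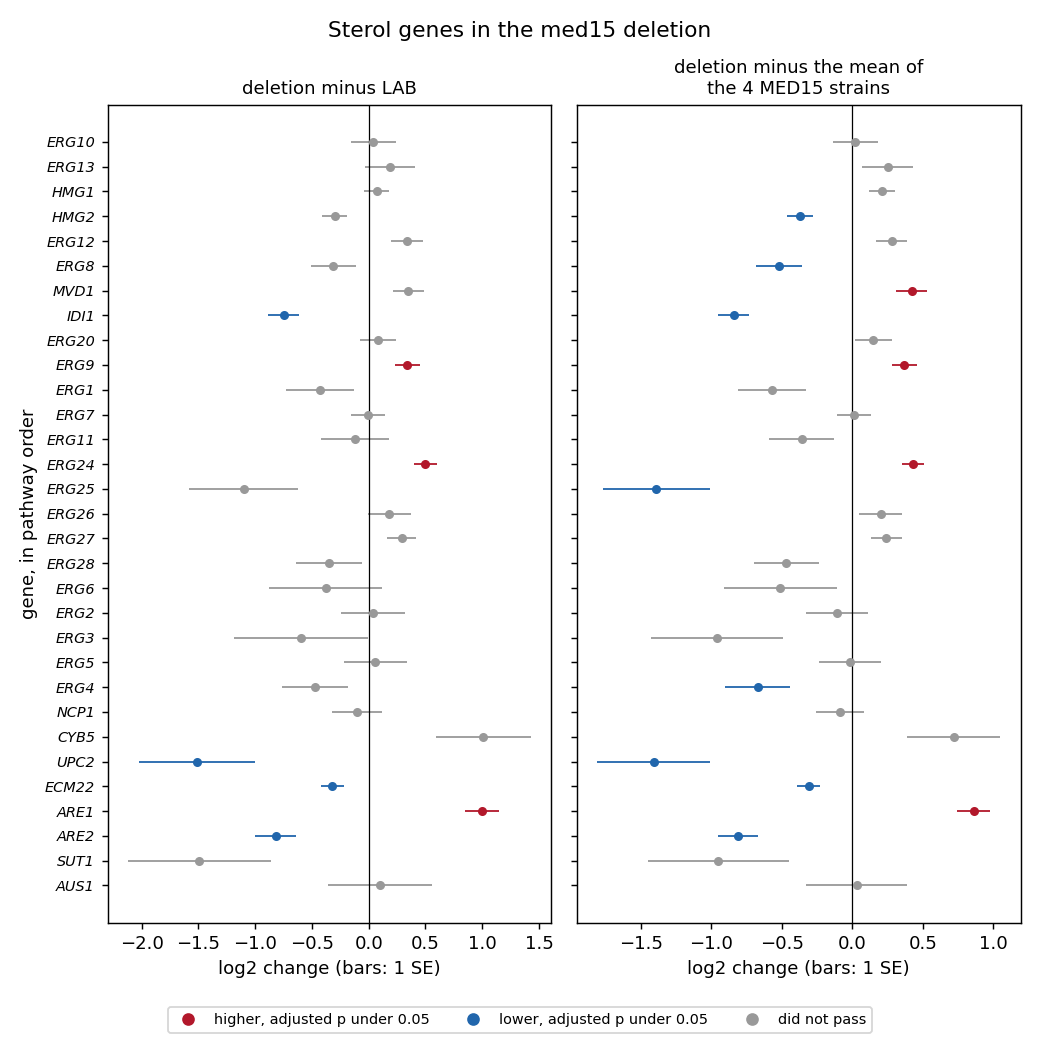
Log2 change of each gene in the med15 deletion, relative to LAB and to the average of the 4 *MED15* strains, with bars of 1 SE of the limma fit, in red or blue where the gene was higher or lower at an adjusted p under 0.05 and in grey where it did not pass. *ARE1* lies at 1.00 and *UPC2* at -1.51 against LAB, and 24 of the 31 genes did not pass.

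The clearest contrast was between the ester synthases, which join sterol to a fatty acid. *ARE1* (YCR048W) had 4759 and 5607 normalized counts in the deletion, against 2502 and 2798 (WY7), 3332 and 2519 (WY15), 3162 and 3424 (WY23) and 2404 and 2757 (LAB). Both deletion libraries lay above all 8 others. *ARE2* (YNR019W) had 2250 and 2016 in the deletion, against 4119 and 4139 (WY7), 3208 and 2548 (WY15), 4366 and 4447 (WY23) and 3124 and 4529 (LAB). Here both deletion libraries lay below all others, with WY15 replicate 2 the nearest. *ARE1* was thus 2.01-fold higher in the deletion than in LAB (log2 change 1.00, SE 0.15, limma adjusted p = 0.0017). *ARE2* fell by 0.82 on the log2 scale (SE 0.18, limma adjusted p = 0.0083), a call that ended without deletion replicate 2 (adjusted p = 0.055). Per kb of coding sequence, the level of *ARE1* over that of *ARE2* was 2.23 and 2.93 in the deletion, against 0.64 to 1.09 in the WY strains and 0.81 and 0.64 in LAB. The 2 genes together made 3762 and 4104 normalized counts per kb in the deletion, against 2695 to 4173 in the WY strains and 2931 and 3852 in LAB, so the deletion lay within the range of the others in their sum and outside it in their ratio. *ARE2* is the enzyme that makes most sterol ester in cells grown with air, and *ARE1* has been tied to low oxygen. *ARE1* overlaps *YCR050C* on the other strand, which had at most 4 normalized counts in any library.

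**Figure D3:**
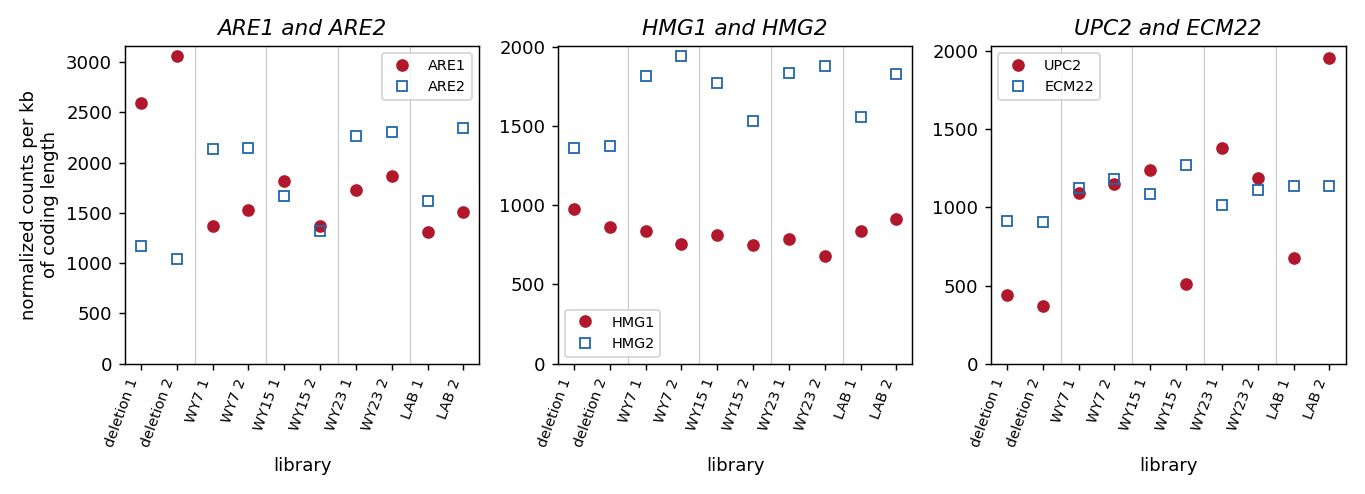
Levels per kb of coding sequence of the paired genes *ARE1* and *ARE2*, *HMG1* and *HMG2*, and *UPC2* and *ECM22* in each library, 1 point per library, deletion left and LAB right. *ARE1* exceeds *ARE2* by more than 2-fold only in the 2 deletion libraries, while *HMG2* exceeds *HMG1* in all 10.

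Both activators were lower in the deletion. *UPC2* (YDR213W) had 1208 and 1010 normalized counts there, against 2991 and 3149 (WY7), 3399 and 1391 (WY15), 3778 and 3259 (WY23) and 1860 and 5354 (LAB). The deletion libraries were the lowest 2 of the 10, but the LAB pair itself differed 2.88-fold and the WY15 pair 2.44-fold. *UPC2* fell by 1.51 against LAB (log2, SE 0.51, limma adjusted p = 0.049) and by 1.41 against the *MED15* mean (SE 0.40, limma adjusted p = 0.020). The call against the mean was lost without deletion replicate 1 (adjusted p = 0.081) or 2 (adjusted p = 0.13). That against LAB was lost in 11 of 19 alternatives, and without LAB replicate 2 the change was -0.75 (adjusted p = 0.25). *ECM22* (YLR228C) had 2232 and 2223 in the deletion, against 2751 and 2889 (WY7), 2648 and 3102 (WY15), 2476 and 2716 (WY23) and 2780 and 2780 (LAB). It had the narrowest interval of the 31 genes, and its change was small, -0.32 against LAB (SE 0.10, limma adjusted p = 0.035) and -0.31 against the *MED15* mean (SE 0.08, limma adjusted p = 0.011). The call against LAB was lost in 11 of 19 alternatives, among them leaving out either deletion library (adjusted p = 0.11 and 0.12) or either LAB library (adjusted p = 0.098 and 0.10), and that against the mean was lost without deletion replicate 1 (adjusted p = 0.067) or 2 (adjusted p = 0.070). Its direction rests on the scaling: with each library set to the same sum it was 0.04 against LAB and 0.10 against the mean. Per kb, *UPC2* over *ECM22* was 0.48 and 0.41 in the deletion, against 0.97 and 0.97 (WY7), 1.14 and 0.40 (WY15), 1.36 and 1.07 (WY23) and 0.60 and 1.72 (LAB), so WY15 replicate 2 reached the deletion's ratio.

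Among the mevalonate genes the lower call was *IDI1* (YPL117C), the isomerase that interconverts the 5-carbon isoprene units. *IDI1* had 7238 and 7447 normalized counts in the deletion, against 13160 and 14844 (WY7), 13173 and 10528 (WY15), 14657 and 14719 (WY23) and 11176 and 13588 (LAB). Both deletion libraries lay below all others and close to each other. The change was -0.75 against LAB (SE 0.14, limma adjusted p = 0.0048) and -0.84 against the *MED15* mean (SE 0.11, limma adjusted p = 0.00054), and the call remained in all alternatives run. The decarboxylase and the kinase that act before it are given next. *MVD1* (YNR043W), the decarboxylase just before *IDI1*, had 3784 and 3622 in the deletion, against 2220 to 3063 in the WY strains and 2668 and 3147 in LAB. Its change was 0.35 against LAB (limma adjusted p = 0.089) and 0.42 against the mean (SE 0.11, limma adjusted p = 0.016), and the call against the mean was lost without deletion replicate 1 (adjusted p = 0.11) or 2 (adjusted p = 0.073). *ERG8* (YMR220W), the phosphomevalonate kinase, had 6612 and 7107 in the deletion, against 8517 to 11818 in the WY strains and 10179 and 7124 in LAB, where replicate 2 was close to the deletion. It did not pass against LAB (-0.31, limma adjusted p = 0.25) and was lower than the mean (-0.52, SE 0.16, limma adjusted p = 0.024), a call lost in 4 of 18 alternatives, for example without deletion replicate 1 (-0.47, adjusted p = 0.15).

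The HMG-CoA reductases, which make mevalonate at the controlled step of the pathway, are encoded by a pair of genes. *HMG2* (YLR450W) had 4272 and 4309 normalized counts in the deletion, against 4801 to 6093 in the WY strains and 4879 and 5737 in LAB. It missed the threshold against LAB (-0.30, limma adjusted p = 0.064) and passed against the mean (-0.37, SE 0.09, limma adjusted p = 0.0088), though scaled to equal sums that value was 0.04, and the call was lost without deletion replicate 1 (adjusted p = 0.065) or 2 (adjusted p = 0.059). *HMG1* (YML075C) had 3098 and 2732 in the deletion, against 2153 to 2655 in the WY strains and 2645 and 2884 in LAB. These ranges overlap with LAB, and *HMG1* did not pass (0.07 against LAB, limma adjusted p = 0.63; 0.21 against the mean, limma adjusted p = 0.079). Per kb, *HMG1* over *HMG2* was 0.72 and 0.63 in the deletion, against 0.36 to 0.49 in the WY strains and 0.54 and 0.50 in LAB. The remaining mevalonate genes did not pass in either comparison. These are *ERG10* (YPL028W), the thiolase that opens the pathway, *ERG13* (YML126C), the HMG-CoA synthase, *ERG12* (YMR208W), the mevalonate kinase, and *ERG20* (YJL167W), the farnesyl pyrophosphate synthase, with changes of 0.04 to 0.34 against LAB.

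From farnesyl pyrophosphate to lanosterol, *ERG9* (YHR190W) was called higher. It encodes squalene synthase, the entry to the sterol branch, and had 8515 and 9111 normalized counts in the deletion, against 5955 to 7819 in the WY strains and 6830 and 7091 in LAB. Both deletion libraries lay above the other 8. The change was 0.34 against LAB (SE 0.11, limma adjusted p = 0.044), lost in 9 of 19 alternatives, and 0.37 against the mean (SE 0.09, limma adjusted p = 0.0089), lost without deletion replicate 2 (adjusted p = 0.086). *ERG1* (YGR175C), the squalene epoxidase, uses oxygen. It had 12226 and 14080 in the deletion, against 15915 and 21109 (WY7), 25604 and 13655 (WY15), 23539 and 24577 (WY23) and 14584 and 21343 (LAB), and did not pass (-0.43 against LAB, limma adjusted p = 0.30). *ERG7* (YHR072W), the lanosterol synthase, had a change of -0.01 (limma adjusted p = 0.98) with a 95% interval of -0.36 to 0.35.

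Of the 11 genes from lanosterol to ergosterol, *ERG24* (YNL280C) was the call against LAB. *ERG24*, a sterol reductase acting directly after the lanosterol demethylase Erg11, had 3827 and 4050 normalized counts in the deletion, against 2765 and 2973 (WY7), 3064 and 2677 (WY15), 3184 and 3251 (WY23) and 2613 and 2979 (LAB). Its deletion libraries were above all others, and the call held in every alternative run, at 0.50 against LAB (SE 0.10, limma adjusted p = 0.0071) and 0.43 against the mean (SE 0.08, limma adjusted p = 0.0032). *ERG25* (YGR060W), the methyl oxidase that acts next and uses oxygen, had lower values in the deletion. *ERG25* had 8777 and 8477 in the deletion, against 20090 and 24345 (WY7), 38580 and 13440 (WY15), 30040 and 25777 (WY23) and 12918 and 26306 (LAB). All 8 *MED15* libraries were higher, yet they ran from 12918 to 38580. The change of -1.10 against LAB did not pass (95% interval -2.19 to -0.00, limma adjusted p = 0.11), whereas -1.39 against the mean did (SE 0.38, limma adjusted p = 0.016), though not without deletion replicate 1 (adjusted p = 0.086) or 2 (adjusted p = 0.096). *ERG4* (YGL012W), the reductase of the last step, had 6338 and 6837 in the deletion, against 7113 to 12784 in the WY strains and 7037 and 11880 in LAB, and was lower than the mean (-0.67, SE 0.23, limma adjusted p = 0.043), a call lost in 9 of 18 alternatives.

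The other genes of this stretch did not pass in either comparison. *ERG3* (YLR056W), a sterol desaturase, had 10167 and 12756 normalized counts in the deletion, against 19366 and 28111 (WY7), 35483 and 10058 (WY15), 33000 and 31409 (WY23) and 10755 and 27520 (LAB). The deletion thus lay near LAB replicate 1 and WY15 replicate 2 and below the remaining 6 libraries. The change was -0.60 against LAB (95% interval -1.96 to 0.77, limma adjusted p = 0.47) and -0.96 against the mean (limma adjusted p = 0.12). *ERG6* (YML008C), the sterol methyltransferase, had 3046 and 3095 in the deletion, against 2475 to 7147 in the WY strains and 2586 and 6216 in LAB, and its change of -0.38 against LAB had a limma adjusted p of 0.58. *ERG11* (YHR007C), the demethylase, the genes *ERG26* (YGL001C), *ERG27* (YLR100W) and *ERG28* (YER044C) of the later demethylation complex, the isomerase *ERG2* (YMR202W) and the desaturase *ERG5* (YMR015C) had changes of -0.35 to 0.29 against LAB.

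Of the electron donors, *CYB5* (YNL111C), a cytochrome that passes electrons to sterol-modifying enzymes, had 1661 and 1897 normalized counts in the deletion, against 660 and 956 (WY7), 1958 and 731 (WY15), 1746 and 1461 (WY23) and 712 and 1084 (LAB). The deletion was above both LAB libraries, but WY15 replicate 1 was higher than both deletion libraries and WY23 replicate 1 lay between them. The change of 1.01 against LAB missed the threshold (SE 0.42, limma adjusted p = 0.094; 0.037 with DESeq2). *NCP1* (YHR042W), the reductase that feeds the cytochrome P450 enzymes, had 6842 and 6308 in the deletion, against 5288 to 7999 in the WY strains and 5789 and 8534 in LAB (-0.10, limma adjusted p = 0.75). *SUT1* (YGL162W), a regulator named for sterol uptake, was the least reproducible of the set in the deletion, with 5821 and 1514 there, against 10589 and 4805 (WY7), 5254 and 3394 (WY15), 4854 and 3906 (WY23) and 6148 and 11279 (LAB). Its change of -1.49 against LAB did not pass (limma adjusted p = 0.10). Over the alternatives the change ran from -2.46, without deletion replicate 1, to -0.52, so its size rests on single libraries. *AUS1* (YOR011W), a sterol import transporter, had 3251 and 2612 in the deletion, against 1635 to 4611 in the WY strains and 1962 and 3752 in LAB (0.10, limma adjusted p = 0.88).

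Counted by separation, the deletion libraries lay above both LAB libraries for 8 of the 31 genes (25.8%, beside 35.6% of all genes) and below both for 10 (32.3%, beside 34.1%). Against all 8 *MED15* libraries they lay above for *ERG12*, *MVD1*, *ERG9*, *ERG24* and *ARE1* (16.1%, beside 26.6% of all genes) and below for *HMG2*, *ERG8*, *IDI1*, *ERG25*, *ERG4*, *UPC2*, *ECM22* and *ARE2* (25.8%, beside 25.3%). These shares are near or under those of all genes.

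None of the WY alleles was called different from LAB for any sterol gene. By limma, 0 of 31 members and 0 of 6065 genes passed for WY7, WY15, WY23, the mean of the 3 or any difference among the 4 alleles (0% of genes called in each). edgeR called 0 genes in these 5 tests, and DESeq2 called 8, 6, 55, 9 and 158 genes but 0 members. At an unadjusted p under 0.05, limma gave 285 genes for WY7, 350 for WY15, 560 for WY23, 300 for their mean and 491 for any difference, with *ARE1* in WY23 (log2 change 0.35) and *ARE2* across alleles (adjusted p = 0.59) the members among them. The members' median log2 change was 0.01 in WY7, 0.02 in WY15 and 0.23 in WY23, where 28 of 31 genes were above LAB on average. Set against each LAB library, the mean of the WY23 pair was above replicate 1 for 28 and above replicate 2 for 16 of the 31 genes. Among the largest values, the log2 change of *ERG3* in WY23 was 0.90 (95% interval -0.47 to 2.27) and that of *SUT1* in WY15 was -0.98 (95% interval -2.43 to 0.47). For the mean of the WY alleles the half-width of the 95% interval ran from 0.18 for *ECM22* over a median of 0.38 to 1.19 for *SUT1*, and for 25 of the 31 genes the whole interval lay within a 2-fold change either way. For each single allele it was wider, from 0.22 over a median of 0.47 to 1.45. Whole intervals lay within 2-fold for 24 genes in WY7, 24 in WY15 and 20 in WY23.

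The replicates of LAB and of WY15 differed in nearly all sterol genes. In LAB, 29 of the 31 genes were lower in replicate 1 than in replicate 2, *ECM22* was equal to the nearest whole normalized count and *ERG8* was higher, with a median log2 difference of -0.52. In WY15, 29 of 31 were higher in replicate 1, all but *ECM22* and *ERG8*, with a median of 0.58. The medians were 0.01 in the deletion, -0.19 in WY7 and 0.07 in WY23, while over all genes every strain's median lay between -0.01 and 0.01. In size, the median difference of the members was 0.58 in WY15 and 0.52 in LAB, beside 0.20 and 0.18 for all genes.

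**Figure D4:**
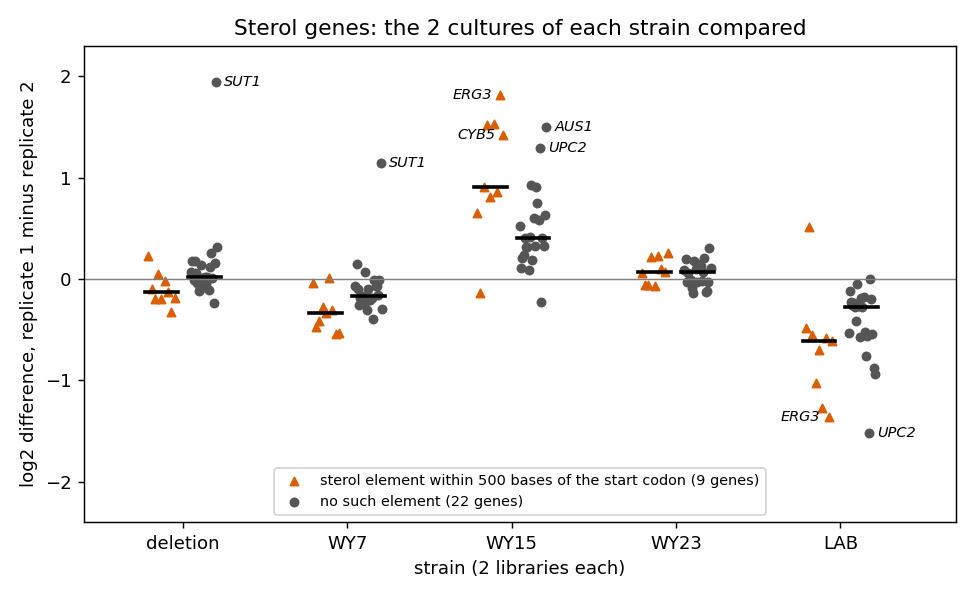
Log2 difference of replicate 1 over replicate 2 for each of the 31 genes in each strain, deletion left and LAB right, with members that hold the sterol element marked apart from the other 22. The genes sit around 0 in the deletion and WY23, mostly above 0 in WY15 (median 0.58) and mostly below in LAB (median -0.52).

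The genes that differed most between replicates recur. Replicates more than 2-fold apart numbered 1 of 31 in the deletion and 1 in WY7, *SUT1* each time, 6 in WY15, 0 in WY23 and 4 in LAB, beside 1.4%, 1.8%, 3.08%, 0.791% and 2.59% of all genes in the same strains. *ERG3* differed 3.53-fold in WY15 and 2.56-fold in LAB, *ERG6* 2.89-fold and 2.40-fold, *ERG25* 2.87-fold and 2.04-fold, and *UPC2* 2.44-fold and 2.88-fold. *AUS1* and *CYB5* made up the 6 in WY15, at 2.82-fold and 2.68-fold. LAB replicate 1 and WY15 replicate 2 were the lowest 2 of the 8 *MED15* libraries for 18 of the 31 genes (58.1%), beside 14.4% of all genes, a count made after these libraries were seen to be low. The genes outside that pattern include *HMG1*, *ERG12*, *ERG8*, *MVD1*, *ECM22*, *ARE1* and *SUT1*.

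Many genes of the low-oxygen state differed between the same libraries. The summed normalized counts of 12 such genes, among them the cell wall genes *DAN1* and *TIR1* to *TIR4*, *HEM13* and *OLE1*, were 86939 and 111271 in the deletion, against 196527 and 266799 (WY7), 220791 and 85293 (WY15), 250001 and 261199 (WY23) and 113738 and 251721 (LAB). *OLE1*, the fatty acid desaturase, made 58.3 to 81.3% of each sum, and none of the 12 was at 0 in any library. Taken gene by gene, their median difference between replicates was 1.70 in WY15 and -1.35 in LAB, and 8 of the 12 had LAB replicate 1 and WY15 replicate 2 as the lowest 2 *MED15* libraries. The others were *DAN4*, *COX5B*, *CYC7* and *AAC3*. *CYC7* went the other way, with 7607 and 10043 in WY15 and 9150 and 8105 in LAB, and so did *COX5B* in LAB (18242 and 16429). The 9 members with the sterol element summed to 52653 and 57323 in the deletion, against 77568 and 100775 (WY7), 131162 and 58481 (WY15), 117137 and 111291 (WY23) and 59942 and 101816 (LAB). The deletion, WY15 replicate 2 and LAB replicate 1 were the lowest 4 libraries in both sums. Most single low-oxygen genes did not place them together. Both deletion libraries lay above those 2 for *DAN1*, *DAN4*, *TIR1*, *TIR3*, *TIR4*, *HEM13*, *ANB1* and *AAC3*, and below both for *TIR2*, *COX5B* and *CYC7*. *TIR4*, for example, had 4983 and 5985 in the deletion, 1010 in WY15 replicate 2 and 1315 in LAB replicate 1. The part of oxygen supply in the sterol gene values was not tested.

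**Figure D5:**
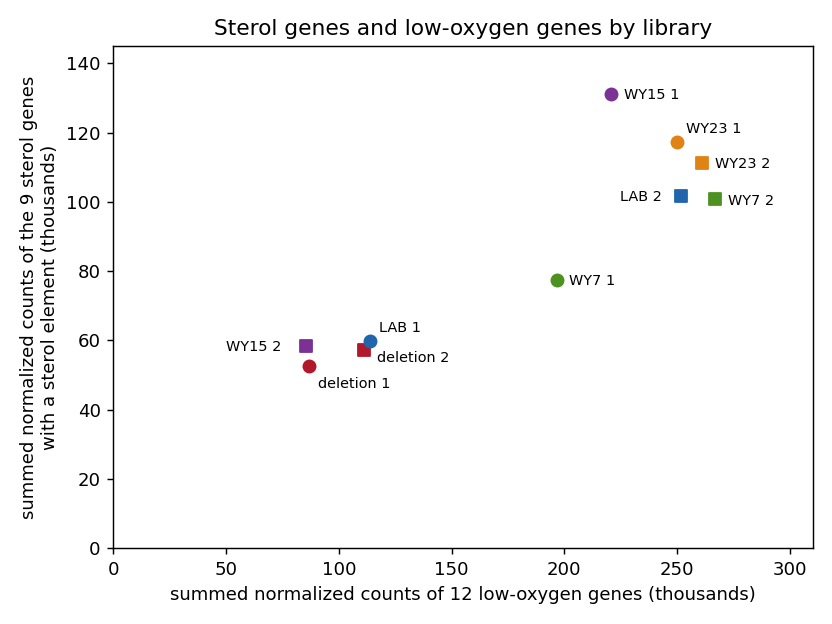
Summed normalized counts of the 9 members with the sterol element (vertical axis) and of 12 low-oxygen genes (horizontal axis), 1 point per library, coloured by strain. Both deletion libraries, LAB replicate 1 and WY15 replicate 2 lie at the lower left, and the other 6 libraries at the upper right. *OLE1* makes 58.3 to 81.3% of each low-oxygen sum, and most of the other low-oxygen genes are higher in the deletion than in those 2 libraries.

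The median difference between replicates of the 9 members with the element was -0.13 in the deletion, -0.34 in WY7, 0.91 in WY15, 0.07 in WY23 and -0.61 in LAB. For the 22 members without it the medians were 0.02, -0.17, 0.40, 0.06 and -0.28 in the same strains. The difference between these groups of genes was not tested, and in WY23 they were nearly equal. The 387 other tested genes with the same letters had medians of 0.01 in WY15 and -0.04 in LAB, close to 0. In the deletion against LAB the median was -0.35 for the 9 and 0.05 for the 22, and against the *MED15* mean it was -0.51 and 0.01. Against LAB, 0 of the 9 were called, beside 36.6% of all genes, and *CYB5* (1.01), *ERG13* (0.19) and *ERG2* (0.04) were above 0. All 7 called members are among the 22 without the element. The 9 also differed more between the LAB replicates than the 22, so the lack of calls does not show that they were unchanged. Against the mean, where 49.9% of all genes were called, *ERG8* and *ERG25* were the called members with it, both lower. *ERG8* holds the element and did not follow the others, being higher in LAB replicate 1 and in WY15 replicate 2, and *UPC2*, which followed them, has no match in its own 500 bases.

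LAB replicate 1 and WY15 replicate 2 were both left out in an alternative chosen after their values were seen. The members' median log2 change in the deletion was then -0.25 against LAB, beside 0 for all genes. Against the *MED15* mean it was -0.28, beside -0.01 for all genes. *ERG3* was at -1.27, *ERG6* at -1.02 and *ERG25* at -1.61 against LAB. *ERG1* was at -0.7, *ERG28* at -0.7, *ERG4* at -0.85, *HMG2* at -0.42 and *NCP1* at -0.38. This choice removes the lowest libraries of the comparison and so moves these genes down in the deletion by construction, and LAB and WY15 keep 1 library each, assumed to vary like the other groups. Among the genes above 0, *ERG9* moved from 0.34 to 0.31 and *CYB5* from 1.01 to 0.71 against LAB when the pair was left out. The members' median against LAB was -0.25 without LAB replicate 1 and 0.18 without LAB replicate 2, beside -0.01 with both.

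Taken as a share of all normalized counts in a library, the 31 genes made 0.776 and 0.780% in the deletion, against 0.583 to 0.983% in the WY strains and 0.614 and 0.876% in LAB. Per kb of coding sequence and averaged over all libraries, *ERG25* was the most abundant (22446 normalized counts per kb), followed by *ERG3* (19911) and *IDI1* (13902), and *HMG1* (821) and *AUS1* (714) were the least. The spread of *ERG25* and *ERG3* over libraries exceeds the gap between them, so their order is not fixed.

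Around the pathway, 19 further genes of sterol transport were called about as often as genes at large: 3 were higher in the deletion than in LAB and 4 lower (36.8%, beside 36.6% of all genes). *HES1*, an oxysterol-binding protein homologue, had 1809 and 1813 normalized counts in the deletion, against 329 to 777 in the WY strains and 355 and 792 in LAB. Its change was 1.77 (SE 0.43, limma adjusted p = 0.014), with *PRY2*, a secreted sterol-binding protein, at 0.94 and *YSP2*, a sterol transfer protein at membrane contacts, at 0.58. The paralog of *PRY2*, *PRY1*, was at -0.98, *NPC2*, a vacuolar sterol carrier, at -0.97 and *OSH2* at -0.58. The *HES1* call was lost without LAB replicate 1 (1.19, adjusted p = 0.072) and without either deletion library.

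Of 13 genes that control the pathway, 0 were higher, beside 18.9% of all genes, and 5 lower (38.5%, beside 17.7% of all genes). In either direction 36.6% of all genes were called. *DAP1*, a haem-binding partner of Erg11, had 2821 and 3913 normalized counts in the deletion, against 5402 to 9007 in the WY strains and 6042 and 7100 in LAB (-0.98, limma adjusted p = 0.0055). *ROX1*, the repressor of low-oxygen genes, had 4079 and 3555 in the deletion, against 5632 to 8026 in the WY strains and 6528 and 6873 in LAB (-0.81, limma adjusted p = 0.0013). *HAP1*, whose product responds to haem, was at -1.10 (limma adjusted p = 0.036), lost without LAB replicate 2 (-0.68, adjusted p = 0.19). In S288C *HAP1* is interrupted by a transposon near its end, so its reads need not stand for a working protein.

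Of 5 genes for breaking down sterol esters or acetylating sterols, *TGL1*, an ester hydrolase, was higher (0.42, limma adjusted p = 0.034; lost in 8 of 19 alternatives) and 0 were lower, which makes 20.0% called beside 36.6% of all genes. Of 11 genes on other branches from isoprenoids, *SRT1*, a dolichol synthesis gene, was higher (2.01, limma adjusted p = 0.0017) and *RAM2*, a prenyltransferase subunit, lower (-0.28, limma adjusted p = 0.041; 0.08 with libraries scaled to equal sums), or 18.2% called beside the same 36.6%. Of the 12 low-oxygen genes, *AAC3* (2.19) and *DAN4* (0.72) were higher and *COX5B* (-1.17) lower, a smaller share than the 36.6% of all genes, while *OLE1*, the most abundant, did not pass (-0.90, limma adjusted p = 0.27). A set of 10 sporulation genes, markers of another cell state, summed to 9031 and 8701 normalized counts in the deletion, against 2983 to 3568 in the WY strains and 3464 and 3640 in LAB, with 7 of 10 higher (70.0%, beside 18.9% of all genes) and none at 0. The set was not higher throughout. *IME2* had 702 and 838 in the deletion, against 612 to 850 in the other 8 libraries, and *NDT80* had 278 and 189, against 163 to 207. The part of the sporulation genes in the sterol gene values was not tested.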

How the data were processed

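Polyadenylated RNA of 10 cultures (5 strains, 2 separate fermentations each) was sequenced from stranded libraries, per the labels' protocols. Per the submitters' processing notes, the tools were featureCounts, Bowtie2, Trim Galore and DESeq2 and the builds sacCer3 and R64. For their settings, and for whether strand was used, nothing is given in the sources used here. The deposited signal is a read count per gene divided by the DESeq2 size factor of the library, called a normalized count here. Dividing by the value of 1 read gave whole numbers for 100% of values within 1e-06, so reads were recovered. Depth was 22.7 to 29.3 M reads, and counting intervals would cover counting error only. Names and positions came from RefSeq's R64 annotation, which matched 5917 of 6600 identifiers.

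Groups were compared with limma 3.58.1 (R 4.3.3) after taking log2(value + 1), for 6065 genes with a mean of at least 10, in 1 fit of 5 group means with 5 residual degrees of freedom and a variance trend, two-sided, Benjamini-Hochberg adjusted over all genes. Fold changes on this scale slightly understate those of low genes. On simulated counts with changed genes of known size the fit was tested beforehand. Alternatives were other scalings, edgeR 4.0.16, DESeq2 1.42.0, a pseudocount of 10, no filter, only the libraries compared, a replicate block and leaving out libraries. All 31 members could be named, and of each neighbouring list up to 3 called genes per direction and up to 2 abundant others. Members and lists were chosen with earlier results of these data known. Motifs were searched in 500 bases before each start codon of 6000 genes. 1 member overlaps another gene, and reads of genes at least 97% identical over 150 bp may be misassigned.

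The replicate numbers were checked for pairing: of 10 correlations between strains of the within-strain differences 3 exceeded 0.1 (range -0.50 to 0.41), so the numbers were not taken as pairs.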

Additional observations from a re-analysis of the deposited data

How the results depend on the processing

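Against LAB, the calls of *IDI1*, *ERG24* and *ARE1* remained in all 19 alternatives and that of *ARE2* in 18, and against the *MED15* mean those of *IDI1*, *ERG24*, *ARE1* and *ARE2* in all 18. The members called higher and lower against LAB numbered 3 and 4, beside 1147 and 1072 of all 6065 genes. With all libraries scaled to an equal sum they were 11 and 2, beside 2871 and 425. With only the libraries compared 2 were lower, beside 735 of all genes. With LAB replicate 1 and WY15 replicate 2 left out, the members' median moved from -0.01 to -0.25 and that of all genes stayed at 0. Leaving out 1 library at a time gave 2 to 5 higher and 1 to 6 lower. Against the *MED15* mean, 1554 of all 6065 genes were called higher and 1473 lower. At equal sums these were 3674 and 497, so the shift to higher calls there was not particular to the members. Under quantile normalization 1552 of all genes were higher. Without both low libraries, where LAB and WY15 keep 1 library each, the median was -0.28 for the members and -0.01 for all genes. The members called against the *MED15* mean numbered 4 and 8. They were 13 and 4 at equal sums, 8 higher under quantile normalization and 15 lower without both low libraries. Leaving out 1 library gave 2 to 8 higher and 2 to 12 lower. At equal sums *ECM22* turned to 0.04 against LAB and 0.10 against the mean, *HMG2* to 0.04 against the mean and *RAM2* to 0.08 against LAB, because that scaling raised the whole deletion. The median difference between replicates was -0.04 under quantile normalization and 0 at equal sums in the deletion (0.01 as reported), and 0.14 at equal sums in WY23 (0.07 as reported). With the replicate block, 3 members were called higher and 3 lower against LAB and 4 and 7 against the mean: *UPC2* against LAB (adjusted p = 0.075) and *ERG4* against the mean (adjusted p = 0.063) were lost, and no other member's call changed. Of all genes, 1063 were higher and 988 lower against LAB in that fit, and 1490 and 1398 against the mean. The WY comparisons kept 0 called members in every alternative. Beyond these shifts the cause was not tested. Some members called in neither setting changed sign around 0. With 2 libraries per strain, the spread between fermentations and not read depth sets the precision.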
